A study of Homo sapiens with 4 samples.

Results

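Pirin and the NF-kB genes around it were read as 10 genes of the 20031 named on the array: PIR, BCL3, NFKB1, NFKB2, RELA, RELB, REL, NFKBIA, NFKBIE and TNFAIP3. Every probe set whose platform annotation gives one of these symbols was taken, which gave 20 of the 54613 probe sets used. The knock-down group was U937 cells carrying shPIR#7, a short hairpin against PIR in the lentiviral vector pSICO-R, and the other group was U937 cells infected with the same vector left empty, so no control hairpin was included. U937 is an established human myelomonocytic line that came from a diffuse histiocytic lymphoma, and both groups were kept in RPMI-1640 with 10% FCS and 2 mM glutamine. For each group, RNA from 3 extractions was mixed into 1 pool, and each pool was hybridised to 2 Affymetrix HG-U133 Plus 2.0 arrays. The 2 arrays of a pool are repeat hybridisations of the same RNA. Errors below are therefore SDs between 2 arrays (n = 2 arrays), and no p-value was computed for a comparison of 1 pool with another. In RNA from whole cultures, fewer cells of a type and less RNA per cell cannot be told apart.

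NF-kB is a family of dimeric transcription factors. The subunits p50 (from NFKB1) and p52 (from NFKB2) bind DNA but lack an activation domain, whereas RELA, RELB and REL carry one. Inhibitors of the IkB family hold the dimers in the cytoplasm until IkB kinase marks them for degradation, and several inhibitor genes are themselves NF-kB targets, which closes a feedback loop. BCL3 is an atypical IkB protein of the nucleus that joins p50 or p52 homodimers at DNA, and pirin, a cupin-fold protein of the nucleus that holds an iron ion, is known as a BCL3 partner.

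The hairpin is printed because it defines the knock-down group. Capitals mark its longest pair of stretches that are reverse complements of each other, of 20 bases each, with 7 lower-case bases between them. They were found by this match, so the designed arms and loop may be divided otherwise.
shPIR#7, forward oligonucleotide: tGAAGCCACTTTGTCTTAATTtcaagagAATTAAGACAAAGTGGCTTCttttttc

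The promoter sequences are printed because several members are known targets of the factors they encode. RefSeq promoter windows on GRCh38.p14, each running from 250 bases before to 50 bases after an annotated start, were given for 8 of the 10 members, with none for RELB and NFKBIE. Each was searched on both strands for the kB consensus. It was present in at least 1 window of 6 members: BCL3, NFKB1, NFKB2, REL, NFKBIA and TNFAIP3. The windows of PIR and RELA held no match. Across all 35116 windows 5.91% held a match, and 7.09% of 27305 genes had one in any window. Of the 12 member windows 4 held 2 or more matches, 2 of them at NFKB2 and 1 each at REL and TNFAIP3, against 0.738% of all windows. Some of these are 1 site that reads on both strands at a shift of 1 base. In the lines below, written on the gene's strand, capitals mark the match and lower case the 10 bases on either side.
NFKB1, chr4:102501300-102501329, plus strand: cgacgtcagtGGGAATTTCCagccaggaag
NFKB2, chr10:102394461-102394490, plus strand: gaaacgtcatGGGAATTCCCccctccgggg
NFKB2, chr10:102394490-102394519, plus strand: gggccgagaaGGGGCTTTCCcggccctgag
NFKB2, chr10:102395674-102395703, plus strand: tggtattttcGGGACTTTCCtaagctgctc
REL, chr2:60881517-60881546, plus strand: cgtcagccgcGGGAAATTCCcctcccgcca
NFKBIA, chr14:35404811-35404840, minus strand: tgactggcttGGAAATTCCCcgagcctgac
TNFAIP3, chr6:137867182-137867211, plus strand: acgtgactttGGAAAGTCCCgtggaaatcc
TNFAIP3, chr6:137867194-137867223, plus strand: aaagtcccgtGGAAATCCCCgggcctacaa
The matches of NFKB1, REL and NFKBIA began 49, 47 and 81 bases before their starts. Those of TNFAIP3 began 67 and 55 bases before its start, so their printed stretches overlap. Those of NFKB2 began 107 and 78 bases before its second annotated start and 21 and 176 bases before the third, the last not printed, and the BCL3 match began 2 bases past its start. A match is a string of letters in a window and was not measured as a binding site here.

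**Figure D1:**
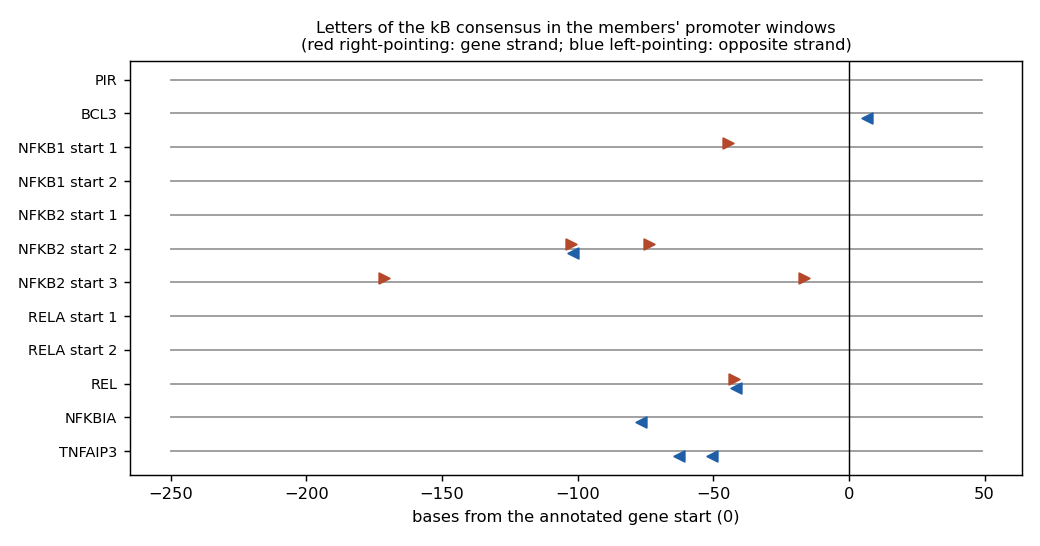
Position of each kB consensus match, in bases from the annotated start (x axis), in the 12 promoter windows of 8 members; each row is a window and each triangle a match, pointing right on the gene strand and left on the opposite strand. NFKB2 has matches at 2 of its starts, and the windows of PIR and RELA have none.

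Each probe set carries 1 signal intensity per array. The 4 arrays were scaled to the same trimmed mean of 500.07, and their medians were 62.5 and 68.5 in the knock-down pool, against 70.8 and 72.1 in the empty-vector pool. Differences are knock-down minus empty vector on the scale log2(signal + 18), and folds are on that scale too, which understates the change of dim probe sets. A brightness limit, the 60th percentile of signal on each array, lay at 116.4 and 124.5 in the knock-down pool and at 125.5 on both empty-vector arrays. A probe set was taken as measured if at least 1 pool had both its arrays at that limit or above, which held for 15 of the 20 member probe sets and for at least 1 probe set of every member. The size rule asked for a 2-fold difference, the same sign and a size of 0.5 or more in all 4 array-by-array differences, and a higher pool with both arrays at the limit or above. Over all measured probe sets the median SD between arrays of a pool on the log2 scale was 0.09 for knock-down and 0.07 for empty vector. The ratio of the 3' to the 5' probe set, a sign of RNA integrity, was 0.980 and 1.00 for GAPDH in the knock-down pool and 0.959 and 1.02 in the empty-vector pool, and for ACTB it was 1.18 and 1.17 against 1.17 and 1.18.

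Among the 15 measured member probe sets, PIR alone met the size rule, as lower, and none met it as higher. Over all 21933 measured probe sets, 2.29% met the rule as higher and 1.45% as lower. Differences below 2-fold were the usual case, and their arrays were mostly apart. Both knock-down arrays lay above both empty-vector arrays for 11 of the 15 (73.3%), below them for 2 (PIR and NFKBIA), and the arrays of the pools overlapped for 2 (NFKB2 207535_s_at and REL 239486_at). The background for such separation was high, at 37.4% of all measured probe sets for higher and 33.3% for lower. Leaving out PIR, the 11 higher probe sets were 78.6% of 14, and several of them read the same gene, so they are not separate observations. With each gene at its brightest probe set, 8 of the 9 members other than PIR had a positive difference, 7 (77.8%) had both knock-down arrays above both empty-vector arrays, and NFKBIA had both below. Of the 10457 measured genes 41.0% were apart as higher and 31.1% as lower. The median difference of the 9 was 0.22, with a range from -0.42 to 0.44, against 0.05 for all measured genes. The middle range of all measured genes, from the 25th to the 75th percentile, was -0.19 to 0.29, and the 90th percentile was 0.55. Of the 9 differences 6 lay inside that middle range, and those of REL, TNFAIP3 and NFKBIA lay outside it.

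**Figure D2:**
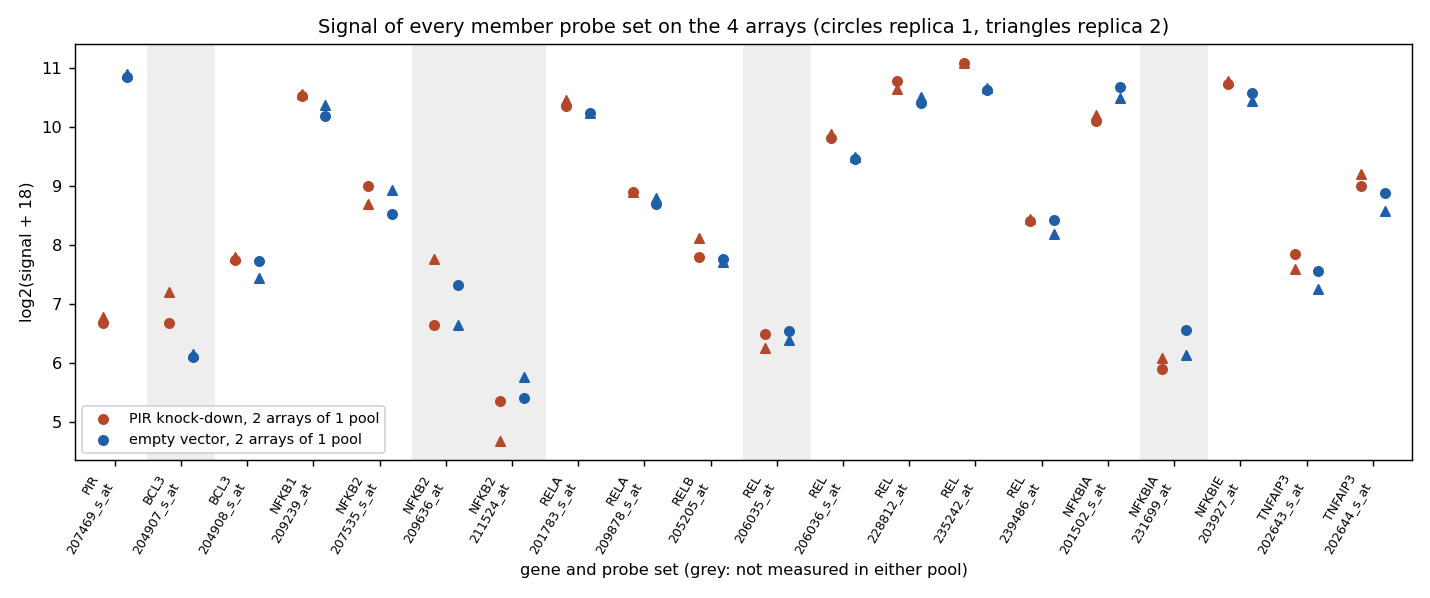
The value log2(signal + 18) on each array (y axis) for the 20 member probe sets (x axis), with the 2 knock-down arrays (red) left of the 2 empty-vector arrays (blue) for each and the 5 probe sets that were not measured in grey. The PIR pools differ by -4.15, and for the other probe sets the arrays of 1 pool lie within 1.12 of those of the other.

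PIR, at chrX:15384799-15493333, is the target of the hairpin and so checks the labels. Its only probe set, 207469_s_at, had signals of 83.4 and 91.5 on the knock-down arrays, against 1812.9 and 1881.7 on the empty-vector arrays. Both knock-down values were below the brightness limit, and both empty-vector values were far above it. The log2 difference was -4.15, with array-by-array differences from -4.23 to -4.06, and among measured genes none had a lower one. Because the knock-down signal is dim, the size of the difference depends on the pseudocount, and it was -4.40 with none and -3.59 with a pseudocount of 72.

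By the distance between centred log2 values over the 4 arrays, the 3 measured genes nearest to PIR were CXCL8 at 1.42, UTP18 at 1.48 and DCP2 at 1.94. CXCL8, the neutrophil chemoattractant interleukin-8, had signals of 918.2 and 961.9 on the knock-down arrays, against 6634 and 6073.5 on the empty-vector arrays. UTP18, a ribosomal RNA processing factor, and DCP2, the mRNA decapping enzyme, had log2 differences of -2.67 and -2.21. Over 4 arrays from 2 pools this distance depends mainly on the size of the difference between the pools.

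BCL3, at chr19:44747705-44760044, was read by 2 probe sets that both carry a second symbol, MIR8085, a microRNA locus of 65 bases inside the BCL3 span. The measured one, 204908_s_at, was assigned to BCL3 through its transcript accession and had signals of 194.9 and 203.3 on the knock-down arrays, against 192.7 and 155.7 on the empty-vector arrays. The knock-down arrays were higher, but the closest pair of arrays differed by only 0.01 on the log2 scale, and the difference of the pools was 0.18. The other, 204907_s_at, listed to both symbols, had 83.7 and 128 in the knock-down pool, against 50 and 52.4 in the empty-vector pool. Its knock-down arrays were both higher, with a difference of 0.82 and array pairs from 0.53 to 1.10. It was dim, though, reaching the brightness limit on 1 array only, and did not count as measured. Without knock-down replicate 1 it met the size rule, at 1.08. On its measured probe set BCL3 was 1.13-fold higher, and with all 4 arrays neither probe set met the size rule.

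NFKB1, at chr4:102501359-102617302, encodes p105, the precursor of p50. Probe set 209239_at had signals of 1449.5 and 1485.7 on the knock-down arrays, against 1142 and 1309.5 on the empty-vector arrays. The arrays did not overlap, the means were 1468 ± 25.6 for knock-down and 1226 ± 118 for empty vector (SD, n = 2 arrays each), and the log2 difference was 0.26 (1.20-fold), with array pairs from 0.14 to 0.37. Of measured genes 27.3% had a higher difference.

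NFKB2, at chr10:102394110-102402529, encodes p100, the precursor of p52 and an inhibitor of RELB dimers. Its measured probe set, 207535_s_at, had 491.3 and 393.4 in the knock-down pool, against 348.6 and 470.8 in the empty-vector pool. These values interleave, and array pairs ran from -0.25 to 0.47 around a difference of 0.11. Probe set 209636_at was dim and also interleaved, with 82 and 199 in the knock-down pool, against 140.7 and 82 in the empty-vector pool. Probe set 211524_at, also dim, had 22.8 and 7.5 in the knock-down pool, against 24 and 36 in the empty-vector pool, with a difference of -0.56. The 3 probe sets of NFKB2 gave no common direction.

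RELA, at chr11:65653601-65663857, encodes p65, the activating subunit of the canonical dimer. Its brighter probe set, 201783_s_at, had signals of 1284.6 and 1383.1 on the knock-down arrays, against 1183 and 1186.1 on the empty-vector arrays. On 209878_s_at the signals were 459.3 and 456.4 in the knock-down pool, against 395.2 and 426.7 in the empty-vector pool. Both probe sets had the knock-down arrays higher by a small margin, with log2 differences of 0.17 and 0.15.

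RELB, at chr19:45001464-45038192, encodes the activating partner of p52 in the non-canonical pathway. Probe set 205205_at had 203.7 and 259.7 in the knock-down pool, against 198.4 and 191.7 in the empty-vector pool. The knock-down arrays were the higher ones, but they differed from each other more than the first of them did from the empty-vector arrays. The log2 difference was 0.22, with array pairs from 0.03 to 0.41.

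REL, at chr2:60881574-60931612, encodes c-Rel, an activating subunit best known from lymphoid and myeloid cells, and it had the highest difference of the members at their brightest probe sets. Its brightest probe set, 235242_at, had signals of 2148.3 and 2133.9 on the knock-down arrays, against 1560.3 and 1587.8 on the empty-vector arrays. The arrays of each pool nearly coincide, with means of 2141 ± 10.2 for knock-down and 1574 ± 19.4 for empty vector (SD, n = 2 arrays each), and the log2 difference of 0.44 (1.36-fold) had array pairs from 0.42 to 0.46. On 206036_s_at the signals were 882.6 and 926.2 in the knock-down pool, against 684.1 and 696.4 in the empty-vector pool, a difference of 0.38. On 228812_at they were 1741.3 and 1584.4 in the knock-down pool, against 1338.5 and 1435.7 in the empty-vector pool, a difference of 0.26. These 3 probe sets thus had both knock-down arrays higher, though by unequal amounts. The fourth measured one, 239486_at, overlapped, with 320.5 and 326.5 in the knock-down pool, against 325.8 and 271.8 in the empty-vector pool. The dim 206035_at also overlapped, with 71.2 and 57.7 in the knock-down pool, against 74.6 and 65.2 in the empty-vector pool. Even for REL, 14.8% of measured genes had a higher difference.

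**Figure D3:**
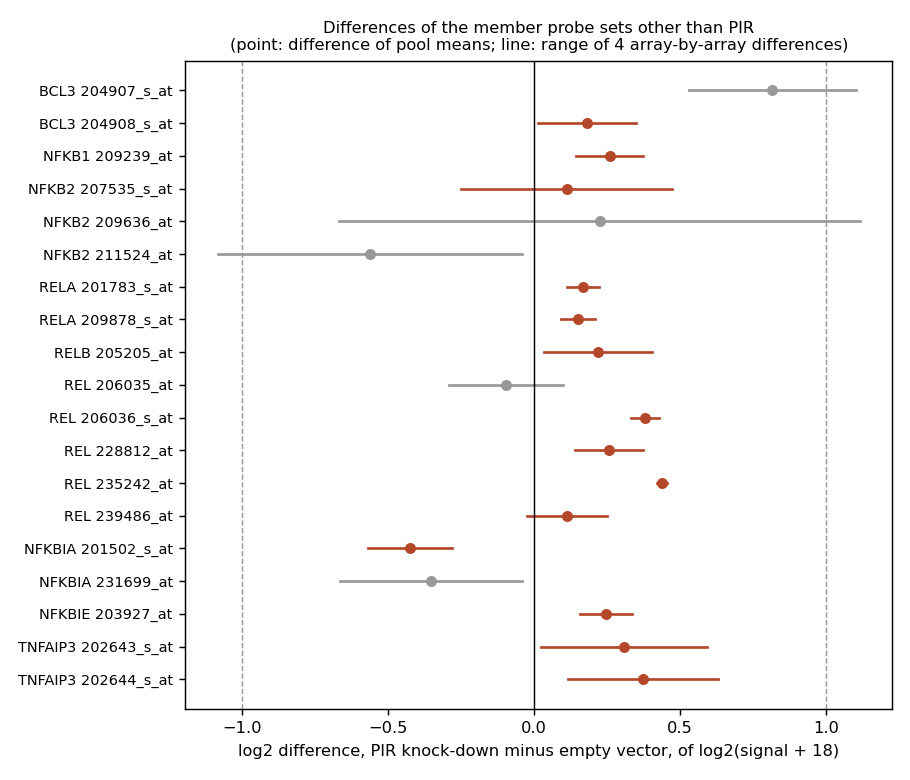
Log2 difference, knock-down minus empty vector, for the member probe sets other than PIR (rows); points are the pool differences, lines run over the 4 array-by-array differences, grey marks the 5 that were not measured, and dashed lines mark 2-fold. The measured ones lie between -0.42 and 0.44, and the longest line is that of NFKB2 209636_at, from -0.67 to 1.12.

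The inhibitors had differences of both signs. NFKBIA, at chr14:35401513-35404749, encodes IkB-alpha, the main inhibitor of RELA dimers and a well known NF-kB target. Its measured probe set, 201502_s_at, had signals of 1078 and 1160.5 on the knock-down arrays, against 1607.1 and 1413.3 on the empty-vector arrays. The means were 1119 ± 58.3 for knock-down and 1510.2 ± 137 for empty vector (SD, n = 2 arrays each). Both knock-down arrays were lower, by -0.42 on the log2 scale (1.34-fold lower), with array pairs from -0.57 to -0.28. The dim probe set 231699_at, with 41.4 and 49.8 in the knock-down pool, against 76 and 51.8 in the empty-vector pool, had the same sign at -0.35. NFKBIA was the only member other than PIR with both knock-down arrays lower on a measured probe set, and 9.97% of measured genes had a lower difference.

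NFKBIE, at chr6:44258166-44265551, encodes IkB-epsilon, a further cytoplasmic inhibitor. Probe set 203927_at had 1681.2 and 1729.6 in the knock-down pool, against 1504 and 1367.6 in the empty-vector pool. Its knock-down arrays were both higher, with means of 1705 ± 34.2 for knock-down and 1436 ± 96.4 for empty vector (SD, n = 2 arrays each), a log2 difference of 0.25 and array pairs from 0.16 to 0.33. TNFAIP3, at chr6:137866349-137883312, encodes A20, a ubiquitin-editing enzyme that restrains signalling upstream of IkB kinase and is itself an NF-kB target. On 202644_s_at the signals were 494 and 568.5 in the knock-down pool, against 454 and 361.2 in the empty-vector pool, and on 202643_s_at they were 211 and 173.4 in the knock-down pool, against 170.1 and 134 in the empty-vector pool. Both probe sets had the knock-down arrays higher, by 0.37 and 0.31, with wide array pairs from 0.12 to 0.63 and from 0.03 to 0.59. Of the 6 members with kB matches, NFKBIA alone had a negative difference at its brightest probe set. The differences of the others were 0.37 for TNFAIP3, 0.44 for REL, 0.26 for NFKB1, 0.18 for BCL3 and 0.11 for NFKB2, whose arrays overlapped. A link between the matches and the differences was not tested.

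**Figure D4:**
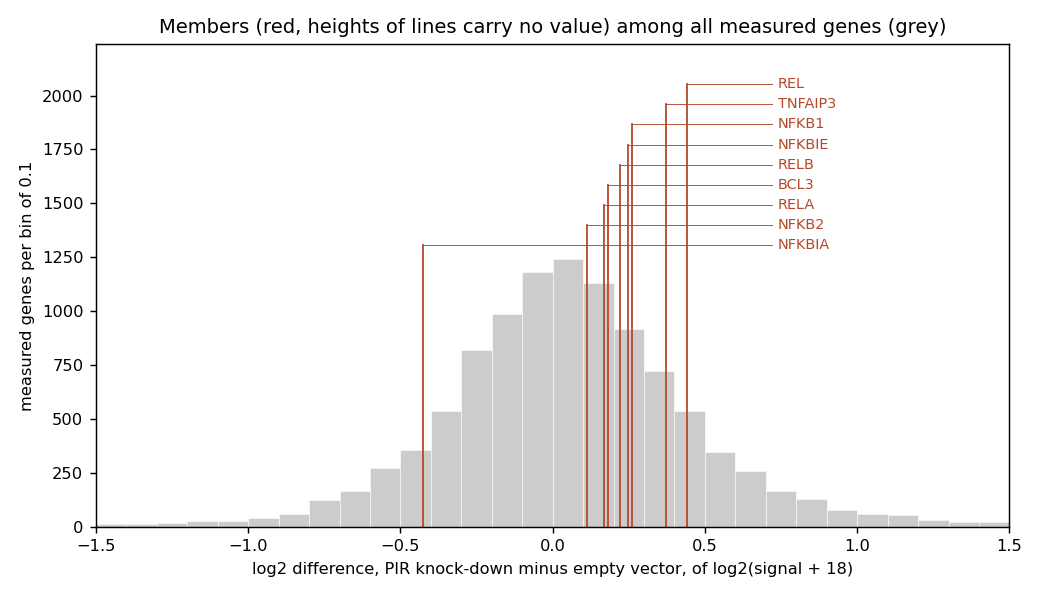
Number of measured genes (y axis) per bin of 0.1 in the log2 difference, knock-down minus empty vector (x axis), with the 9 members other than PIR as lines, each at its brightest probe set. NFKBIA lies at -0.42, left of most genes, and the other 8 lie between 0.11 and 0.44, to the right of the median of 0.05.

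The rest of the pathway was read from lists of genes that share a role, each gene at its brightest probe set. The other IkB and BCL3-like proteins, taken with the repressor NKRF, numbered 5, of which 4 were measured, and none met the size rule. All 4 differences were negative, their median was -0.41, and 2 had both knock-down arrays lower, as had 31.1% of all measured genes. The median was -0.26 without knock-down replicate 2, and -0.17 over all 5 genes with no brightness limit. NKRF, which binds elements in NF-kB target promoters, had 979.3 and 1209.3 in the knock-down pool, against 1666 and 1778.7 in the empty-vector pool, a difference of -0.65. NFKBIZ, which encodes the atypical nuclear IkB protein IkB-zeta, was named after its value was seen. It had 204.2 and 264.5 in the knock-down pool, against 388.4 and 363.8 in the empty-vector pool. Its difference was also -0.65, and its second probe set gave -0.42. The highest of the list was NFKBID at -0.14, whose other probe set gave -0.85. The list is short, and -0.65 is just below the 5th percentile of all measured genes, -0.60.

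The IkB kinase complex and its activating kinases had 19 measured genes, none of which met the size rule, with 12 positive and a median of 0.10. That median was 0.04 without knock-down replicate 1 and 0.07 without knock-down replicate 2, against 0.05 for all measured genes on the 4 arrays. MAP3K8, the kinase TPL2 that p105 holds inactive, had 194.5 and 261.4 in the knock-down pool, against 114.6 and 98.1 in the empty-vector pool. Its knock-down arrays were the higher ones, and its difference of 0.97 was just short of the 2-fold limit, which it passed at 1.09 under median scaling and at 1.17 without knock-down replicate 1. CHUK, the kinase IKK-alpha, was at the other end with 1110.5 and 1013.5 in the knock-down pool, against 1652.9 and 1550.7 in the empty-vector pool, a difference of -0.59. Of 18 measured receptors and adaptors, IL1RAP, a co-receptor chain for interleukin-1, alone met the rule, as lower, and the median was 0.09, or 0.05 without empty-vector replicate 1. It had 140.7 and 239.7 in the knock-down pool, against 647.1 and 663 in the empty-vector pool, and its second probe set, at -0.51, was less far apart than the first, at -1.73.

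Of 19 measured genes of ubiquitin editing and NF-kB restraint, RNF11, a subunit of the A20 complex, alone met the rule. Its signals were 867.7 and 997.7 in the knock-down pool, against 1806.6 and 2143.8 in the empty-vector pool, a difference of -1.07. It was -0.94 under median scaling or without empty-vector replicate 2 and -0.97 without knock-down replicate 1, and then did not meet the rule. The median of the list was 0.01, or 0.08 without empty-vector replicate 1. The 16 measured coactivators and corepressors of NF-kB and BCL3 had a median of -0.12, or -0.07 without knock-down replicate 1, and none met the rule. Both knock-down arrays were lower for 9 of the 16 and higher for 4, against 31.1% and 41.0% of all measured genes. At the brightest probe sets, NCOA1, a histone acetyltransferase of the p160 family, had the highest difference of this list at 0.56. Its signals were 770.7 and 709.8 in the knock-down pool, against 483.5 and 506.1 in the empty-vector pool, and its 4 measured probe sets ran from 0.13 to 0.67. EP300, the acetyltransferase p300, had the lowest at -0.45, with 182.2 and 312.4 in the knock-down pool, against 313 and 354.9 in the empty-vector pool. That value varied with the array left out, at -0.09 without knock-down replicate 1 and -0.81 without knock-down replicate 2. The second measured probe set of EP300 gave -0.44. Some measured probe sets that were not the brightest of their gene reached further, to 0.95 for NFIC and -0.71 for HDAC2. Over these 5 lists, 76 genes were measured, 0 met the rule as higher and 2 as lower, against 2.42% and 1.09% of all measured genes, and their median was 0.02. Both knock-down arrays were higher for 28 of the 76 and lower for 24, against 41.0% and 31.1% of all measured genes. The kinase list had 8 higher and 4 lower, the receptors and adaptors 8 and 3, and the ubiquitin list 8 and 6. Among 18 measured NF-kB target genes, CXCL8 (-2.73) and CCL2 (-1.42), a monocyte chemoattractant, met the rule as lower and none as higher, and the median was -0.06. Both knock-down arrays were lower for 8 of these 18 targets and higher for 7, the highest being ICAM1 at 0.75. Without knock-down replicate 2 the rule gave 4 lower and 0 higher with a median of -0.01, and at a 1.5-fold limit it gave 7 lower and 2 higher. The sign of the medians of the target and coactivator lists depended on the scaling, at 0.07 and 0.01 when the arrays were scaled to a common median.

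**Figure D5:**
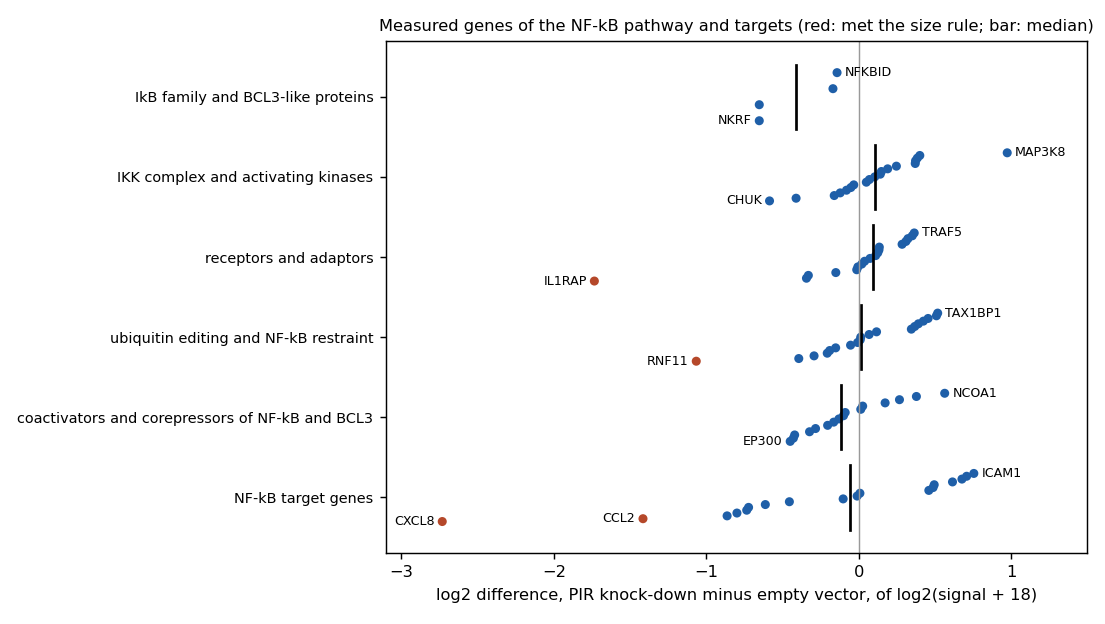
Log2 difference, knock-down minus empty vector (x axis), of each measured gene in the 6 lists (rows), sorted within a row, with a bar at the median. Red points met the size rule, all of them as lower, and names mark the ends of each list and the genes that met it.

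Marker genes were read beside these values. Of 10 monocyte markers 6 were measured, 4 had both knock-down arrays higher and none lower, against 41.0% and 31.1% of all measured genes, and the median difference was 0.69. The summed signal of the 9 found on the array was 33488.1 and 39697.7 in the knock-down pool, against 32962.1 and 33200.6 in the empty-vector pool. Most of it was LYZ, with 25099.6 and 30525 in the knock-down pool, against 27355.8 and 27532.8 in the empty-vector pool. CD14, MPO and FCGR1A, which define monocytes and their precursors, were below the brightness limit, CD14 with 7.3 and 5.2 in the knock-down pool, against 10.4 and 7.9 in the empty-vector pool. Of the 6 measured ones, ITGAX (0.90), CD4 (0.84), CSF1R (0.69) and PTPRC (0.69) had both knock-down arrays higher, whereas LYZ (0.01) and SPI1 (-0.13) overlapped. Of 15 markers of other cell types 13 were found and 3 were measured, COL1A1 at 0.36, CD79A at -0.11 and PECAM1, which monocytes also carry, at 0.76. The rest of those found were too dim to count as measured. The summed signal of the 13 was 6578.8 and 7027.2 in the knock-down pool, against 4188.9 and 4366.5 in the empty-vector pool. Most of that sum was PECAM1, with 5786.5 and 6020.9 in the knock-down pool, against 3432.1 and 3519.5 in the empty-vector pool. The part of these markers in the members' differences was not tested.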

How the data were processed

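The labels' protocols give TRIzol extraction and an RNeasy clean-up, with targets made from 5 ug of total RNA. The deposited values are 1 linear signal intensity per probe set and array, which the authors obtained from GCOS software according to the submitters' processing notes. The version is not given in the sources used here. Detection calls were not used here, and the brightness limit stood in their place. The comparison is bounded by having 1 pool per group, which more arrays of the same pools would not change.

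Of 54675 probe sets, 62 controls were left out. In the platform annotation, 41091 of the rest had 1 symbol, 11721 none and 1801 several; 388 of the last group were assigned to a gene by transcript accession. The 25th percentile of signal, averaged over arrays, gave the pseudocount of 18. A gene was represented by its brightest probe set, and the 2 arrays of a pool were averaged to 1 value. Gene positions and promoters came from RefSeq on GRCh38.p14.

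The genes named were all members with every probe set, the members of each list that met the size rule or otherwise its highest and lowest, and the 3 genes nearest to PIR; NFKBIZ, outside this rule, was chosen after its value was seen. The members and lists were chosen with earlier results of these data known. The counting was tested on simulated data only with bright signals, little noise and planted changes well beyond the size rule. That test does not cover dim probe sets or differences near the limit. The 14 alternatives were other pseudocounts, scalings, brightness limits and size rules, and arrays left out. They also included the mean over all measured probe sets of a gene, and pairing by replicate number, which the arrays did not bear out (correlation of same-numbered deviations 0.004). Those for array overlap and for the median of all genes were chosen after seeing the data. Python 3.11.15, pandas 2.3.3, numpy 2.4.6 and matplotlib 3.10.9 were used.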

Additional observations from a re-analysis of the deposited data

How the results depend on the processing

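PIR kept its direction and met the size rule under the alternatives run, with a log2 difference of -4.40 with no pseudocount, -3.59 with a pseudocount 4 times larger, -4.03 under median scaling and -4.20 to -4.09 with 1 array left out. The median of the other members was 0.34 under median scaling, where that of all measured genes was 0.17, and 0.18 to 0.27 under the rest. Under that scaling 76.5% of probe sets and 81.7% of genes meeting the size rule were higher, against 61.2% and 68.9% as reported, and the higher share of those with arrays apart was 69.4% and 74.1%, against 52.9% and 56.9%. The count of members meeting the size rule as higher was 0 to 1 with 1 array left out, the 1 being BCL3 204907_s_at (1.08) without knock-down replicate 1. With no brightness limit, all 20 member probe sets entered, and 12 had both knock-down arrays higher and 4 lower (1 of PIR, 1 of NFKB2 and 2 of NFKBIA), against 23.4% and 27.0% of all probe sets, of which 1110 met the size rule as higher and 1280 as lower. With a replicate block, the margin of the size rule was taken over same-numbered arrays only. This leaves every pool difference unchanged by construction, that of PIR at -4.15 included. The size rule then again gave 0 higher and 1 lower. Of 20 member probe sets, 16 kept their sign; the exceptions were NFKB2 207535_s_at and 209636_at and REL 206035_at and 239486_at. RNF11 no longer met the rule under median scaling (-0.94), without knock-down replicate 1 (-0.97) or without empty-vector replicate 2 (-0.94), and MAP3K8 met it with no pseudocount (1.09), under quantile normalization (1.01) and median scaling (1.09), at a 1.5-fold limit, and without knock-down replicate 1 (1.17) or empty-vector replicate 1 (1.07). The other 722 values recomputed include those of the replicate block, where a pool difference or list median cannot move. Of these 722, 661 moved by less than the spread between arrays or within the 1.5-fold band for counts and 61 moved further. Of the 372 among them that are differences or medians, 12 had another sign, none of them for a gene that met the size rule: 8 for the 4 probe sets above, 2 for the target list (0.07 under median scaling and 0.01 at the 75th percentile brightness limit), 1 for the coactivator list (0.01 under median scaling) and 1 for all genes (-0.0013 with no brightness limit). The cause was not tested. The design has 1 pool per group, so no spread between cultures is known, and 5 member probe sets were too dim to count as measured.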
